A study of Mus musculus with 18 samples.

Results

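The 9 genes described here are those by which astrocytes of the brain and Müller glia of the retina are commonly recognised: Gfap, Vim, Glul, Slc1a3, Apoe, Clu, S100b, Aldh1l1 and Sox9. They were chosen by name and found by gene symbol in the deposited tables of choroid, retina and brain, which made 9 genes of the 14068 listed in any table and of the 10505 listed in all 3. RNA was measured in 18 libraries, 3 in each of 6 groups. All mice, those of the inputs included, carried Tie2-cre, a transgene whose promoter drives Cre in endothelium and in blood-lineage cells, and NuTRAP, an allele that puts a GFP tag on ribosomes once Cre has acted. The groups were choroid input, choroid positive, retina input, retina positive, brain input and brain positive. An input was 150 µl of cleared lysate set aside, and the positive fraction was the RNA that an antibody to GFP pulled down from the rest of that lysate, so the positive fraction stands for ribosome-bound RNA of the tagged cells plus whatever is carried along. A choroid sample was scraped from both eyes of an animal together with the retinal pigment epithelium (RPE), a retina sample pooled 2 retinae, and a brain sample was part of a brain. Each group holds the replicates 421, 953 and 960, named in the sample titles. The column names of the tables carry WT for every library and the table names NT, labels whose meaning the sources used here do not explain. These sources also do not say whether a number stands for the same animal in every tissue, nor give sex or age, and mock pull-downs or mice without the transgenes were not analysed here.

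Astrocytes and Müller glia are the supporting glia of brain and retina. Both clear glutamate from the extracellular space and turn it into glutamine, both export lipid on lipoprotein particles, and both wrap the walls of blood vessels with their endfeet, so that glial RNA lies close to any vessel preparation. None of the 9 genes is private to glia. Vimentin is also made by endothelial and mesenchymal cells, Apoe by macrophages and microglia, S100b by pigment cells and Schwann cells, and Sox9 and Clu by several epithelia.

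In the tables, which use the mouse build mm10, Gfap lay on chromosome 11 from 102887336 to 102897200 (minus strand), Vim on chromosome 2 from 13574311 to 13582826 (plus), Slc1a3 on chromosome 15 from 8634124 to 8710807 (minus), Glul on chromosome 1 from 153899945 to 153909714 (plus), Apoe on chromosome 7 from 19696244 to 19699166 (minus), Clu on chromosome 14 from 65968483 to 65981545 (plus), S100b on chromosome 10 from 76253836 to 76261319 (plus), Aldh1l1 on chromosome 6 from 90550848 to 90599171 (plus) and Sox9 on chromosome 11 from 112782210 to 112787757 (plus).

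Promoter windows are shown for 3 genes on which the results turn: the filament genes Vim and Gfap, and Apoe, whose enrichment differed between tissues. Each is the 250 bases before the RefSeq start (GRCm38.p6), 5′ to 3′ on the strand of the gene, and capitals mark matches to the motifs named below.
Vim, chr2:13574061-13574310, plus strand: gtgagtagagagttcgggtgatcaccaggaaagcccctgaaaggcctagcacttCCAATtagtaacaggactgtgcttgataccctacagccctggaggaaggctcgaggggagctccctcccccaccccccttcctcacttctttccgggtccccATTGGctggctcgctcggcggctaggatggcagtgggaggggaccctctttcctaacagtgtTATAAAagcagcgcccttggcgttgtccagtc
Gfap, chr11:102897201-102897450, minus strand: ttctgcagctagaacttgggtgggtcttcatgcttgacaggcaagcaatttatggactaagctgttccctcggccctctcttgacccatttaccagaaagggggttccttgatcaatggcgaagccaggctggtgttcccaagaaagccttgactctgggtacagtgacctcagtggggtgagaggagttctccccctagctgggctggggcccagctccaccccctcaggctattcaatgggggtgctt
Apoe, chr7:19699189-19699438, minus strand: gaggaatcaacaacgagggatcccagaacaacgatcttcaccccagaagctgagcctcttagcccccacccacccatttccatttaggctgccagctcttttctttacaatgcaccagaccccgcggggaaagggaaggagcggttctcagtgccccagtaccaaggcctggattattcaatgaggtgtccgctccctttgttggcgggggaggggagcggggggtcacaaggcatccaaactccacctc

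Both strands were searched for 6 motifs: the TATA box TATAAA, found in 12.4% of all 32851 RefSeq windows of this length, the CCAAT box CCAAT (33.8%), the AP-1 motif TGANTCA (6.75%), the STAT motif TTCNNNGAA (7.02%), the SP1 motif GGGCGG (32.7%) and the NFI half-site TTGGCA (12.3%), the last of which can overlap a CCAAT match read on the other strand. The Vim window held a TATA box at -32 to -27 and CCAAT matches at -196 to -192 and, on the other strand, at -94 to -90. The windows of Gfap and Apoe held none of the 6. A window was present for 7 of the 9 genes, and among those 5 held a CCAAT match, 3 an SP1 motif, 2 a TATA box, 1 (Slc1a3) a STAT motif, 1 (S100b) an NFI half-site and 0 an AP-1 motif. A match is a description of letters only.

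Depth is the sum of the counts listed in a table. It ran from 8807208 to 14483964 in choroid inputs, 2649016 to 4587800 in choroid positive fractions, 15243091 to 21521055 in retina inputs, 6260897 to 11071408 in retina positive fractions, 9596720 to 32064311 in brain inputs and 18618321 to 28277777 in brain positive fractions. Of 14 endothelial markers, 14, 13 and 14 were called higher in the positive fraction of choroid, retina and brain. Microglia markers were called higher too, with 8 of 10 measured in choroid, 10 of 10 in retina and 12 of 12 in brain. Among markers of the tissues, Rpe65, an enzyme of the RPE, was at 1397 to 2226 counts per 1000000 counted (CPM) in choroid inputs and Snap25, a synaptic protein of neurons, at 2466 to 2712 CPM in brain inputs. Both choroid libraries of replicate 421 stood apart in Gfap, Slc1a3 and myelin RNA. This did not hold for all glial genes: Sox9 (120.2 CPM) and Clu (3450 CPM) were lowest in 421 among the choroid inputs. Mbp was at 2998, 97.2 and 156.4 CPM in the choroid inputs 421, 953 and 960 and at 858.7, 27.8 and 61.5 CPM in the positive fractions. The brain input 960 stood apart by transcript length: against the other brain inputs, genes below the lower quartile of exon length were higher by a median of 0.63 log2 units, and those above the upper quartile had a median of -0.59. The retina positive fractions 421, 953 and 960 differed in microglia markers, which summed to 255.7, 915.5 and 1099 CPM. The pericyte marker Rgs5 was at 292, 25.5 and 8.71 CPM in the same order. Rod markers summed to 31470, 41380 and 50320 CPM, neuron markers to 2918, 3739 and 4933, and endothelial markers to 4372, 3007 and 2583. In retina inputs the rod sums were 51560 to 53950 CPM and the neuron sums 5595 to 5691 CPM. The part of these differences in the retina ratios of the 9 genes was not tested.

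The pull-down against the input was the first comparison. It asks which RNAs lie on tagged ribosomes more than in the whole tissue. Vim was called higher in the positive fraction of every tissue and Apoe in that of choroid, while Clu and Sox9 were called lower in every tissue. In choroid 2 of the 9 were called higher and 5 lower, in retina 1 and 4, and in brain 1 and 4, at an adjusted p under 0.05 over all genes. Of all genes tested, 21.1% were called higher and 20.9% lower in choroid, 18% and 13.7% in retina, and 21.2% and 18.3% in brain. These shares also stand beside the counts of each gene list below. The median log2 difference of the 9 was -1.38 in choroid, -0.47 in retina and -0.75 in brain, against -0.03, -0.01 and -0.07 over all genes. In these bulk libraries fewer cells of a type and less RNA per cell cannot be told apart. Without both choroid libraries of replicate 421 the choroid count was 8 of 9, and without the brain input 960 the brain count was 9 of 9, with Glul, Apoe, S100b and Aldh1l1 added to the calls. Of all 12919 brain genes, 4670 were then called higher and 4642 lower, against 2744 and 2359 with that library. Without the retina positive fraction 421 the retina count was 5. Without both libraries of 953 the counts higher and lower were 1 and 3 in choroid, 1 and 0 in retina and 1 and 0 in brain, and without both brain libraries of 421 they were 1 and 0. The calls over all genes fell in the same fits. Without 953 they were 1066 higher and 906 lower of 11718 in choroid, 722 and 110 of 12369 in retina and 1291 and 164 of 12919 in brain, and without 421 they were 1502 and 215 in brain. The low counts of any gene list in these fits are therefore no result about that list. None of these fits used the replicate block, which compares the fractions of each lysate. With the block Gfap and Slc1a3 were also called lower in choroid (adjusted p = 0.00023 and 0.000161), and no choroid call was lost. Glul in retina (0.0588) and Gfap in brain (0.0801) were no longer called. Of all choroid genes, 3223 were then called higher and 3412 lower.

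**Figure D1:**
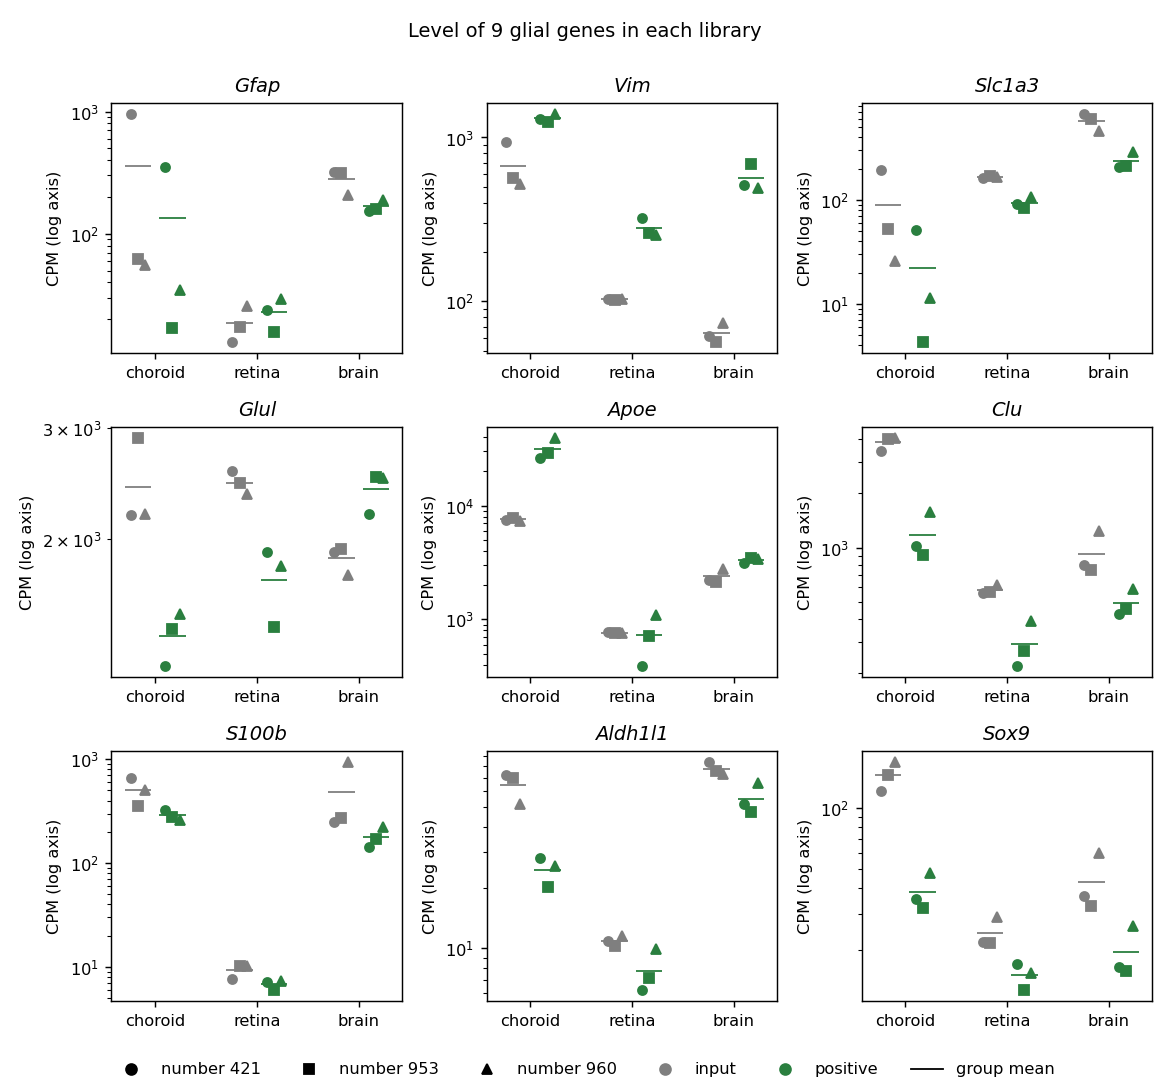
Level of each of the 9 genes in every library, in CPM on a log axis, for choroid, retina and brain (grey: input, green: positive fraction, marker shape: replicate number, line: mean of 3 libraries). Vim lies higher in every positive library than in every input of its tissue, and Gfap in choroid spans 55.1 to 950.4 CPM among the inputs.

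**Figure D2:**
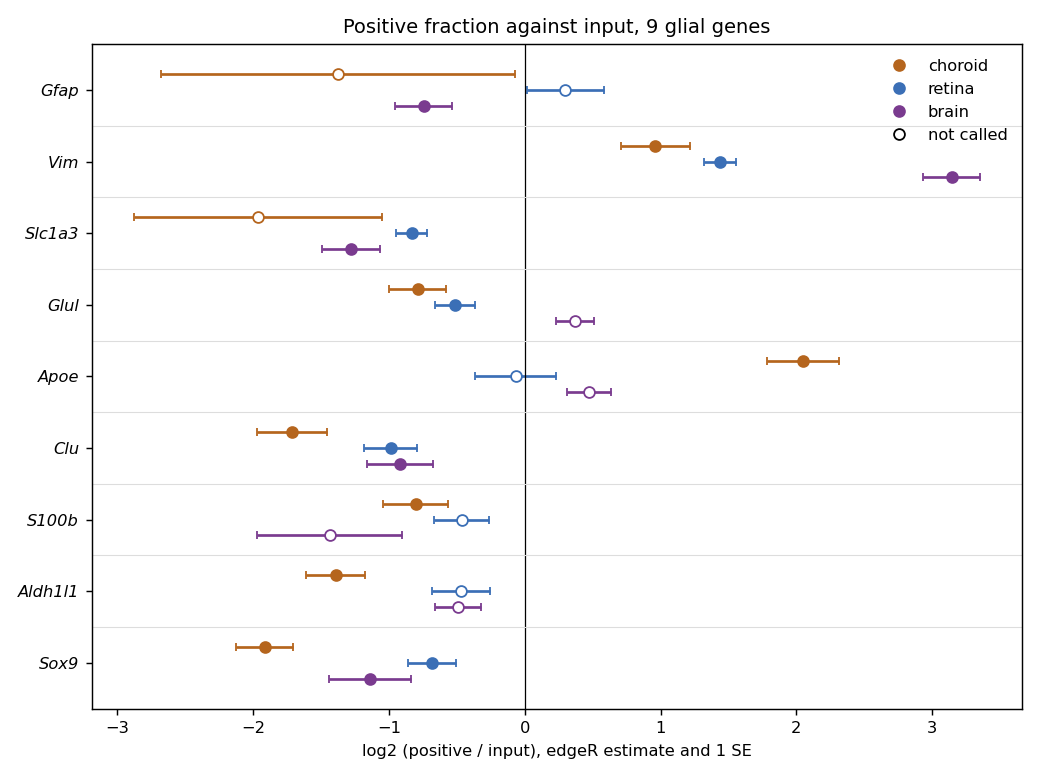
log2 ratio of positive fraction to input for the 9 genes in 3 tissues, as the edgeR estimate with 1 standard error; filled points have an adjusted p under 0.05. Vim is right of 0 in all 3 tissues, Apoe is at 2.05 in choroid, and Clu and Sox9 are left of 0 and called in each tissue.

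Of the filament genes, Vim rose in all 3 tissues. Without the replicate block Gfap was called lower in brain and was not called in choroid or retina. With the block Gfap was called lower in choroid only. Gfap encodes the intermediate filament protein that defines fibrous and reactive astrocytes. In brain it was at 321, 315.1 and 208.2 CPM in the inputs 421, 953 and 960 and at 154.5, 161 and 188.2 CPM in the positive fractions. Every brain positive library was below every brain input, and the log2 difference was -0.75 ± 0.21 (SE, n = 3 against 3), adjusted p = 0.028. That call did not hold with the replicate block (-0.73, adjusted p = 0.0801), in the fit of all 18 libraries (-0.93, adjusted p = 0.428) or in 7 fits without libraries (inputs 421 or 953, any single positive fraction, or both libraries of 421 or of 953), where the adjusted p ran from 0.0548 to 0.314. In retina Gfap was low, at 13.1, 17.4 and 25.9 CPM in the inputs and 23.7, 15.8 and 29.3 CPM in the positive fractions. The groups overlapped, and the difference was 0.30 ± 0.28 log2 units, adjusted p = 0.446.

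In choroid Gfap was at 950.4, 62.5 and 55.1 CPM in the inputs and at 355.1, 17 and 34.8 CPM in the positive fractions. Both libraries of replicate 421 were far above the others, so the fractions overlapped although each positive library was below the input of its own number. The log2 difference was -1.38 ± 1.30, adjusted p = 0.419, without the block. With the replicate block, which compares the fractions of each lysate, it was -1.32 with adjusted p = 0.00023. Without both libraries of 421 it was -1.21 with adjusted p = 0.0174, and without the input 421 alone it was 1.21 with adjusted p = 0.397. The myelin gene Mbp followed the same libraries, with the values given above. Its part in the Gfap value was not tested.

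**Figure D3:**
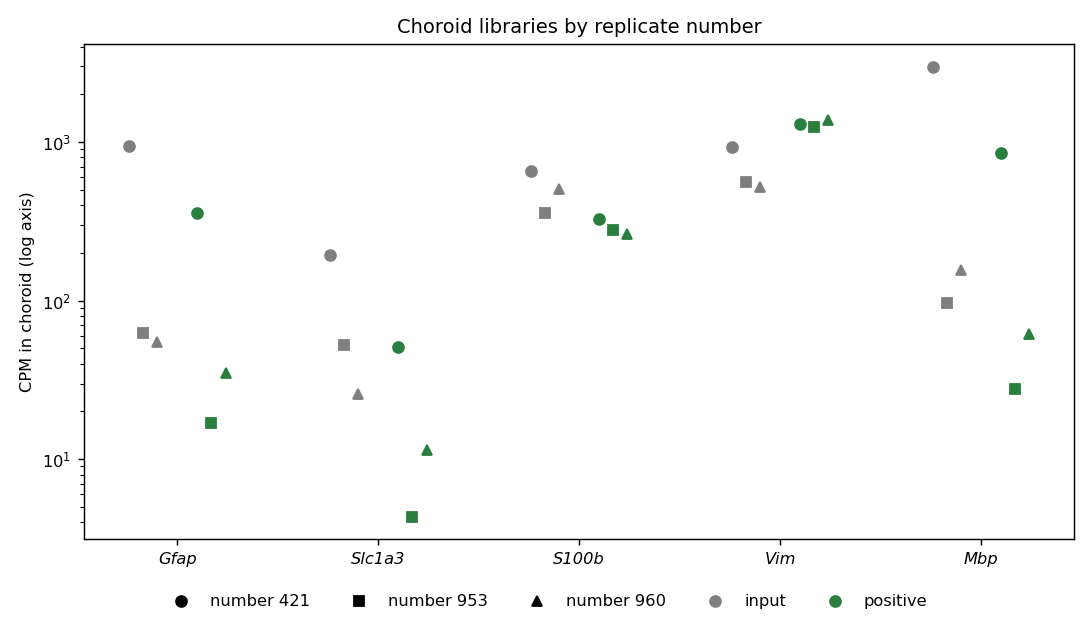
CPM on a log axis in the 6 choroid libraries for 4 of the glial genes and for the myelin gene Mbp, with grey for input, green for the positive fraction and marker shape for the replicate number. The libraries of 421 are the highest of their fraction for Gfap, Slc1a3, S100b and Mbp.

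Vim encodes vimentin, a filament protein of glia and of endothelial and mesenchymal cells. In brain it was at 61.8, 56.5 and 74 CPM in the inputs and at 515.3, 687 and 493.5 CPM in the positive fractions. The lowest positive library was several times the highest input, and the log2 difference was 3.14 ± 0.21, adjusted p = 7.1e-05. In retina it went from 103.5, 101.2 and 103.9 CPM to 321.2, 262.6 and 253.1 CPM, again with no overlap, a rise of 1.44 ± 0.12 log2 units with adjusted p = 3.97e-05. The brain and retina calls held in all 17 alternatives of each. In choroid the inputs were at 934.5, 563 and 522.8 CPM and the positive fractions at 1298, 1250 and 1386 CPM. All 3 positive libraries were above all inputs, with a difference of 0.96 ± 0.25, adjusted p = 0.0161. Leaving out input 953 (adjusted p = 0.0719) or 960 (0.0518) ended the choroid call, as did leaving out both libraries of 953 (0.145) or both of 960 (0.113).

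Of the other filament genes, 4 of 12 measured were called higher and 3 lower in choroid, 3 and 5 of 11 in retina, and 3 and 2 of 10 in brain. Of all genes, 21.1% and 20.9% were so called in choroid, 18% and 13.7% in retina, and 21.2% and 18.3% in brain. The brain counts were thus near the shares of all genes. Nestin (Nes), the filament protein of progenitors and growing vessels, rose in all 3 tissues, by 2.78 ± 0.43, 4.02 ± 0.53 and 4.55 ± 0.28 log2 units in choroid, retina and brain. Synemin (Synm), a partner of vimentin in filaments, rose by 1.26 ± 0.38 in choroid, 1.68 ± 0.10 in retina and 2.56 ± 0.24 in brain, and lamin A (Lmna), a filament of the nuclear envelope, rose by 1.04 ± 0.19, 1.40 ± 0.24 and 0.92 ± 0.14. The epithelial keratins Krt8 and Krt18 fell in choroid (-1.87 ± 0.28 and -1.77 ± 0.29), and the neurofilament gene Nefl fell by 1.43 ± 0.30 in choroid, 0.72 ± 0.15 in retina and 1.07 ± 0.18 in brain. Without both brain libraries of 421 or of 953 the brain count was 2 higher and 0 lower, without both of 960 it was 4 and 5, and without both retina libraries of 953 the retina count was 2 and 0. In choroid 2 were higher and 3 lower without both libraries of 953 or of 960.

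Slc1a3 and Glul are the entry and the enzyme of the glial glutamate cycle. Slc1a3 encodes GLAST, the glutamate transporter of astrocytes and Müller glia. In brain it was at 668.3, 603.8 and 460.2 CPM in the inputs and at 209.7, 214.5 and 289.9 CPM in the positive fractions. The groups did not overlap, and the fall was -1.28 ± 0.21 log2 units, adjusted p = 0.00394. In retina the inputs were at 163.9, 169.4 and 168.4 CPM and the positive fractions at 91, 83.5 and 106.7 CPM. All retina inputs were above all positive libraries, with -0.83 ± 0.12 and adjusted p = 0.000956. The brain call was lost without both libraries of 421 (adjusted p = 0.0987) or of 953 (0.0811) and in the fit of 18 libraries (0.0615), and the retina call without both of 953 (0.058) and in the fit of 18 (0.351).

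In choroid Slc1a3 was at 192.7, 52.4 and 25.8 CPM in the inputs and at 51.3, 4.32 and 11.4 CPM in the positive fractions, with the libraries of 421 again the highest. The groups overlapped through 421, and the difference was -1.97 ± 0.91, adjusted p = 0.114. It was called with the replicate block (-2.12, adjusted p = 0.000161), without both libraries of 421 (-2.36, adjusted p = 0.00643), without the positive fraction 421 (-3.58, adjusted p = 0.0202) and in the fit of 18 libraries (-1.98, adjusted p = 0.0217). Each choroid positive library was below the input of its own number.

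Glul encodes glutamine synthetase, which in brain and retina is made mainly by glia. It fell in choroid, from 2180, 2893 and 2191 CPM in the inputs to 1252, 1435 and 1513 CPM in the positive fractions, with no overlap and -0.79 ± 0.21, adjusted p = 0.0167. In retina it went from 2560, 2455 and 2353 CPM to 1902, 1447 and 1809 CPM, also without overlap, with -0.51 ± 0.15 and adjusted p = 0.0286. In brain the order was the other way: the inputs were at 1905, 1923 and 1752 CPM and the positive fractions at 2191, 2510 and 2501 CPM. Every brain positive library was above every input, but 0.37 ± 0.14 had an adjusted p of 0.0791. The brain difference passed without the input 960 (0.33, adjusted p = 0.0303) or both libraries of 960 (0.29, adjusted p = 0.0226). It also passed with DESeq2 (0.36, 0.0107) or at least 50 counts in every library (0.44, 0.0493). The retina call was lost with the replicate block (-0.52, adjusted p = 0.0588), without any single input (0.126, 0.112 and 0.0933), without the positive fraction 953 (0.0966) and without both of 953 (0.312). The choroid call was lost without the input 953 (0.0646), the positive fraction 953 (0.0572), both of 953 (0.172) or both of 421 (0.0523).

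Of the other genes of glutamate and glutamine transport and metabolism, 1 of 10 measured was called higher and 5 lower in choroid, 1 and 5 of 13 in retina, and 2 and 7 of 13 in brain. With the replicate block the brain count was 2 higher and 3 lower. Slc1a2, which encodes the astrocyte transporter GLT-1, fell by 1.59 ± 0.51 log2 units in choroid, 0.84 ± 0.11 in retina and 1.05 ± 0.28 in brain, and Slc1a1, the neuronal and epithelial transporter, fell in choroid by 1.97 ± 0.27. The glutamine transporter gene Slc38a5 rose by 4.82 ± 0.58 in retina and 5.44 ± 0.45 in brain. Slc38a3, another glutamine transporter, fell in choroid (-2.14 ± 0.40) and rose in brain (1.29 ± 0.22). The lower calls were 0 in brain without both libraries of 421 or of 953 and 0 in retina without both of 953, where all genes had 215, 164 and 110 lower calls, and in choroid 2 without both of 953.

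Apoe and Clu encode the main apolipoproteins of the nervous system, Apoe the lipid carrier and Clu (clusterin, apolipoprotein J) a carrier that also acts as an extracellular chaperone. Apoe was at 7552, 7825 and 7335 CPM in choroid inputs and at 26110, 28780 and 39120 CPM in choroid positive fractions. The groups were far apart, and the rise of 2.05 ± 0.27 log2 units had an adjusted p of 0.000612 and was called in all 17 alternatives. In brain Apoe went from 2239, 2151 and 2796 CPM to 3107, 3493 and 3374 CPM. All positive libraries were above all inputs, with 0.47 ± 0.16 and adjusted p = 0.0564. The brain difference passed without the input 960 (0.60, adjusted p = 0.00197) or both of 960 (0.58, adjusted p = 0.000701). It also passed with library totals (0.43, 0.0491), DESeq2 (0.46, 0.0352) or at least 50 counts in every library (0.55, 0.0312). In retina the inputs were nearly equal, at 772.4, 758 and 767.1 CPM, and the positive fractions spread around them, at 390.7, 714.6 and 1085 CPM. The retina difference was -0.07 ± 0.30, adjusted p = 0.878, and it turned to 0.24 without the positive fraction 421 (adjusted p = 0.26).

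Apoe was set beside markers of macrophages and microglia, cells of the blood lineage that Tie2-cre can tag. In choroid the 9 measured macrophage markers summed to 1811, 1245 and 2159 CPM in inputs and to 12830, 13350 and 19080 CPM in positive fractions. Lyz2, the lysozyme gene of macrophages, was alone at 11670, 12090 and 17610 CPM in the positive fractions. Among these the library highest in Apoe was also highest in the macrophage markers. The choroid inputs had another order: Apoe was highest in 953 (7825 CPM), where the macrophage sum was lowest (1245 CPM). In brain the 10 measured macrophage markers summed to 53.3, 42.4 and 65.1 CPM in inputs. Their sums in brain positive fractions were 727.2, 745.4 and 599.8 CPM, far below those of choroid. The microglia markers summed to 790.5 to 1380 CPM in choroid inputs and 5920 to 8300 CPM in positive fractions, and in brain to 492.3 to 847.8 and 6058 to 8021 CPM. In retina they summed to 64.2 to 68.6 CPM in inputs and to 255.7, 915.5 and 1099 CPM in the positive fractions, the order in which Apoe stood. The orders also matched in brain inputs. In brain positive fractions they did not, with Apoe lowest in 421 (3107 CPM) and the microglia sum lowest in 960 (6058 CPM). Of the macrophage list 9 of 10 genes were listed in choroid, 1 of 10 in retina and 10 of 10 in brain, and of the microglia list 10, 10 and 12 of 12. None (0) of those listed was at 0 in any library, and their part in the Apoe values was not tested.

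**Figure D4:**
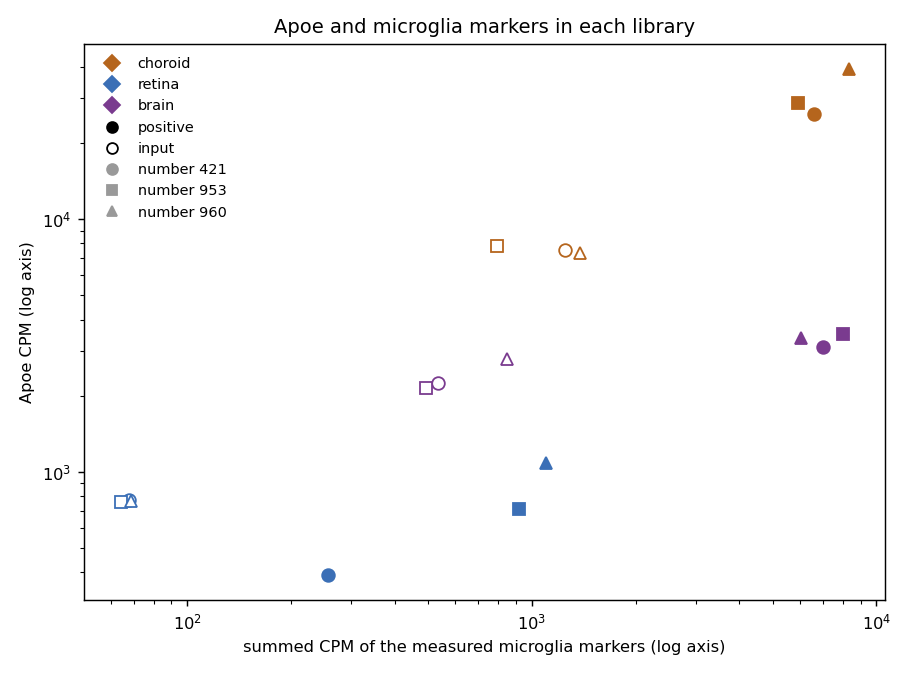
Apoe CPM against the summed CPM of the measured microglia markers (10 in choroid and retina, 12 in brain), both on log axes, in 18 libraries (open: input, filled: positive fraction, colour: tissue, shape: replicate number). The choroid positive libraries are the highest in Apoe, at 26110 to 39120 CPM. The microglia sums are 6058 to 8021 CPM in brain positive libraries and 5920 to 8300 CPM in choroid positive libraries. Macrophage markers, which differ more between these tissues, are not drawn.

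Clu fell in every tissue. In choroid it was at 3450, 4010 and 4044 CPM in inputs and at 1025, 914.1 and 1565 CPM in positive fractions, with no overlap and -1.72 ± 0.26, adjusted p = 0.00124, a call kept in all 17 alternatives. In retina it went from 557.5, 567.6 and 618.6 CPM to 220.3, 265.6 and 392.2 CPM (-0.99 ± 0.20, adjusted p = 0.00672), and in brain from 798.7, 750.1 and 1230 CPM to 429.2, 456.5 and 586.3 CPM (-0.92 ± 0.24, adjusted p = 0.0232). The fractions did not overlap in either. The retina call was lost without both libraries of 953 (adjusted p = 0.143), and the brain call without the positive fractions 421 (0.0998) or 953 (0.102) or both libraries of 421 (0.17) or 953 (0.139).

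Of the partners of these apolipoproteins, which export lipid or take up lipoproteins, 3 of 14 measured were called higher and 6 lower in choroid. The counts were 4 and 5 of 13 in retina and 4 and 3 of 14 in brain. Among all genes 21.1% and 20.9% were called in choroid, 18% and 13.7% in retina, and 21.2% and 18.3% in brain. The brain counts were thus near the shares of all genes. Trem2, a receptor of microglia and macrophages that binds Apoe and Clu, rose by 3.48 ± 0.36 log2 units in choroid and 3.72 ± 0.32 in brain. The cholesterol exporter gene Abcg1 rose in choroid (2.04 ± 0.22) and fell in retina (-0.56 ± 0.11) and brain (-0.61 ± 0.15). Vldlr, a receptor for Apoe particles, fell by 2.22 ± 0.19 in choroid, 0.46 ± 0.10 in retina and 1.13 ± 0.22 in brain, and Scarb1, the HDL receptor, rose by 1.16 ± 0.18 in choroid and 2.47 ± 0.22 in brain. The lower calls were 0 in brain without both libraries of 421 or of 953 and 7 without both of 960, and in retina 1 gene was called higher and 0 lower without both of 953.

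S100b encodes a calcium-binding protein of mature astrocytes. It was at 652.8, 354.8 and 508 CPM in choroid inputs and at 325.9, 280 and 261.9 CPM in the positive fractions. The lowest input lay just above the highest positive library, and the fall was -0.80 ± 0.24, adjusted p = 0.0269. Leaving out input 421 (adjusted p = 0.0795) or 960 (0.0567) ended that call, as did leaving out the positive fraction 953 (0.0817) or 960 (0.0853), both of 953 (0.0598) or both of 960 (0.143). The fit of 18 libraries gave 0.0834. In brain the inputs were at 248.1, 270.6 and 935.6 CPM and the positive fractions at 142.4, 169.8 and 224 CPM. The input 960 was more than 3 times the other inputs, all inputs were above all positive libraries, and -1.44 ± 0.54 had an adjusted p of 0.0718, which became -0.54 with adjusted p = 0.0303 without the input 960. It also passed without input 421 (-1.75, 0.0408) or 953 (-1.73, just under the threshold) and without both of 960 (-0.74, 0.000465). DESeq2 (-1.48, 0.016) and the fit of 18 libraries (-1.62, 0.00249) called it too. S100b has the shortest exon length of the 9 genes (1484 bases, all exons joined), and short genes as a group were higher in the brain input 960. The part of length in the S100b value was not tested. In retina its level was low, at 7.74, 10.3 and 10.2 CPM in inputs and 7.12, 6.03 and 7.28 CPM in positive fractions, with -0.46 ± 0.20 and adjusted p = 0.11.

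In choroid the 8 melanocyte markers, which may share S100b with pigment cells, summed to 5627 to 7767 CPM in inputs and 2597 to 3032 CPM in positive fractions, and all 8 were called lower. They were few in the other tissues, with 2 measured in retina (10.8 to 22.3 CPM in any library) and 1 in brain. Their part in the S100b values was not tested.

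Aldh1l1 encodes an enzyme of folate metabolism used as a general marker of astrocytes. In choroid it was at 72, 69.6 and 51.6 CPM in inputs and at 27.9, 20.1 and 25.4 CPM in positive fractions, apart in every library, with -1.39 ± 0.22 and adjusted p = 0.00156 and a call in all 17 alternatives. In brain it went from 83.6, 75.4 and 73.2 CPM to 51.9, 47.1 and 66.3 CPM. The groups did not overlap, but -0.49 ± 0.17 had an adjusted p of 0.0574. The brain difference passed without input 960 (-0.53, adjusted p = 0.0141), without the positive fraction 960 (-0.64, 0.0326) and without both (-0.69, 0.000273). It also passed with RLE factors (-0.50, 0.0483), with DESeq2 (-0.50, 0.0215) and in the fit of 18 libraries (-0.68, 0.00654). In retina the level was low, at 10.8, 10.3 and 11.6 CPM against 6.23, 7.13 and 9.88 CPM, with -0.47 ± 0.21 and adjusted p = 0.12, which passed without the positive fraction 960 (-0.69, adjusted p = 0.0198).

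Of the other S100 genes and folate enzymes, 3 of 13 measured were called higher and 2 lower in choroid, 5 and 0 in retina, and 1 and 0 in brain, so the choroid shares were near those of all genes. S100a11, a widely made S100 protein, rose by 3.05 ± 0.27 in retina and 4.20 ± 0.30 in brain, and S100a13 rose by 2.02 ± 0.28 in choroid and 3.25 ± 0.27 in retina. The folate enzyme gene Shmt1 fell by 1.38 ± 0.36 in choroid. Without the brain input 960 the brain count was 5 higher and 2 lower, without both brain libraries of 960 it was 5 and 4, and without both choroid libraries of 953 the choroid count was 1 and 0.

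Sox9 encodes the transcription factor that sets glial fate and stays on in astrocytes, Müller glia and RPE. It fell in all 3 tissues. In choroid it was at 120.2, 145 and 167.3 CPM in inputs and 35.6, 32.1 and 47.5 CPM in positive fractions, a clear gap in every library and -1.92 ± 0.21, adjusted p = 0.000299, called in all 17 alternatives. In retina it went from 21.9, 21.5 and 28.9 CPM to 17, 12.7 and 15.3 CPM (-0.68 ± 0.18, adjusted p = 0.0203), and in brain from 36.9, 32.9 and 59.5 CPM to 16.5, 15.7 and 26.2 CPM (-1.14 ± 0.30, adjusted p = 0.0236), with no overlap in either. The retina call was lost without inputs 421 (adjusted p = 0.0506) or 960 (0.104), the positive fraction 953 (0.0797), both of 953 (0.163) or both of 960 (0.0796) and in the fit of 18 (0.0537), and the brain call without the positive fractions 421 (0.095) or 953 (0.105) or both of 421 (0.132) or 953 (0.12). Beside the fall of Sox9 and Clu in choroid, all 9 measured RPE markers were called lower there, with sums of 15510 to 24770 CPM in inputs and 3878 to 8581 CPM in positive fractions. Their part in those values was not tested.

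Other factors of glial fate were called higher and lower in 2 and 3 of 10 measured in choroid, 4 and 1 of 11 in retina, and 3 and 8 of 13 in brain. Notch1, a receptor that holds progenitors back from differentiation, rose by 1.32 ± 0.26, 1.24 ± 0.30 and 1.68 ± 0.22 log2 units in choroid, retina and brain. Of the close relatives of Sox9, Sox10, the factor of oligodendrocytes and melanocytes, fell by 2.00 ± 0.29 in choroid and 1.50 ± 0.31 in brain, and Sox8 fell by 0.60 ± 0.12 in retina and 1.42 ± 0.26 in brain. Lhx2, a factor of Müller glia and RPE, fell in choroid (-1.87 ± 0.28) and brain (-0.83 ± 0.16). Without both brain libraries of 421 or of 953 the brain count was 1 higher and 0 lower, without both retina libraries of 953 the retina count was 0 and 0, and without both of 421 it was 2 and 1.

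A pair of wider lists covered glial genes outside the set. Of other astrocyte genes, 1 of 19 measured was called higher and 12 lower in choroid, 3 and 8 of 16 in retina, and 0 and 21 of 24 in brain, with medians of -1.29, -0.51 and -0.9985. Slc39a12, a zinc transporter of astrocytes, fell by 2.42 ± 0.19 in choroid and 1.38 ± 0.20 in brain, and Plpp3, a lipid phosphatase, fell by 0.87 ± 0.14 in retina and 1.27 ± 0.21 in brain but rose by 1.50 ± 0.32 in choroid. Fam107a fell in choroid (-1.18 ± 0.18) and rose in retina (2.62 ± 0.15), and Fgfr3, a growth factor receptor, rose in retina (3.72 ± 0.47) and fell in brain (-0.89 ± 0.22). Of other Müller glia genes, 1 of 13 was called higher and 9 lower in choroid, 1 and 7 of 14 in retina, and 2 and 6 of 11 in brain. Aqp4, the water channel of endfeet, fell by 0.99 ± 0.17 in retina and 1.62 ± 0.31 in brain. In retina Kcnj10, the potassium channel of endfeet, fell by 0.81 ± 0.14, and Rlbp1, which encodes a carrier of retinoids in Müller glia and RPE, fell by 0.93 ± 0.18. Hes1, a target of Notch signalling, rose by 2.18 ± 0.21 in choroid, 0.77 ± 0.24 in retina and 1.56 ± 0.50 in brain. Without both brain libraries of 421 or of 953 the astrocyte genes called lower in brain were 2 and 1 and the Müller genes 1 and 1, and without both retina libraries of 953 none (0) of either list was called lower in retina. Without both choroid libraries of 953 the counts lower in choroid were 8 and 3, and without both of 421 they were 13 and 9.

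Of genes that rise in reactive glia, 4 of 13 measured were called higher and 2 lower in choroid, 5 and 1 of 10 in retina, and 8 and 1 of 11 in brain, with medians of 0.34, 0.76 and 1.61. With the replicate block the choroid count was 6 higher and 4 lower. Hspb1, a small heat shock protein, rose by 1.11 ± 0.29 in choroid, 3.28 ± 0.30 in retina and 4.59 ± 0.38 in brain, and the cytokine receptor gene Osmr rose by 1.90 ± 0.19 in retina and 4.18 ± 0.26 in brain but fell in choroid (-0.90 ± 0.17). Lgals3, which encodes galectin-3, a lectin of macrophages and reactive microglia, rose by 2.84 ± 0.27 in choroid and 1.61 ± 0.35 in brain, and Socs3, a feedback inhibitor of cytokine signals, rose by 1.18 ± 0.23, 1.42 ± 0.21 and 2.63 ± 0.45 in choroid, retina and brain. Vessel cells and macrophages make several of these genes too, and which cells carried them was not tested. The calls higher in brain were 5 and 4 without both libraries of 421 or of 953, and those in choroid 2 without both of 953.

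Levels between tissues were then compared in fits of the 9 inputs and of the 9 positive fractions, with CPM scaled over all 18 libraries, so that values differ slightly from those scaled within a tissue. Choroid carried the most Apoe, Clu, Vim and Sox9, brain the most Slc1a3, and retina the least S100b and Aldh1l1. Gfap was lower in retina than in brain, and its level in choroid hung on replicate 421. Among inputs, choroid against brain gave 4 of 9 genes higher and 1 lower (26.7% and 27.4% of all genes), choroid against retina 7 and 0 (31.9% and 31.9%), and retina against brain 0 and 7 (24.3% and 34.7%). Among positive fractions the counts were 5 and 3 (23.1% and 23.8%), 7 and 1 (32.9% and 39.1%), and 0 and 7 (32.1% and 31%). The 3 comparisons of a fraction share libraries.

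**Figure D5:**
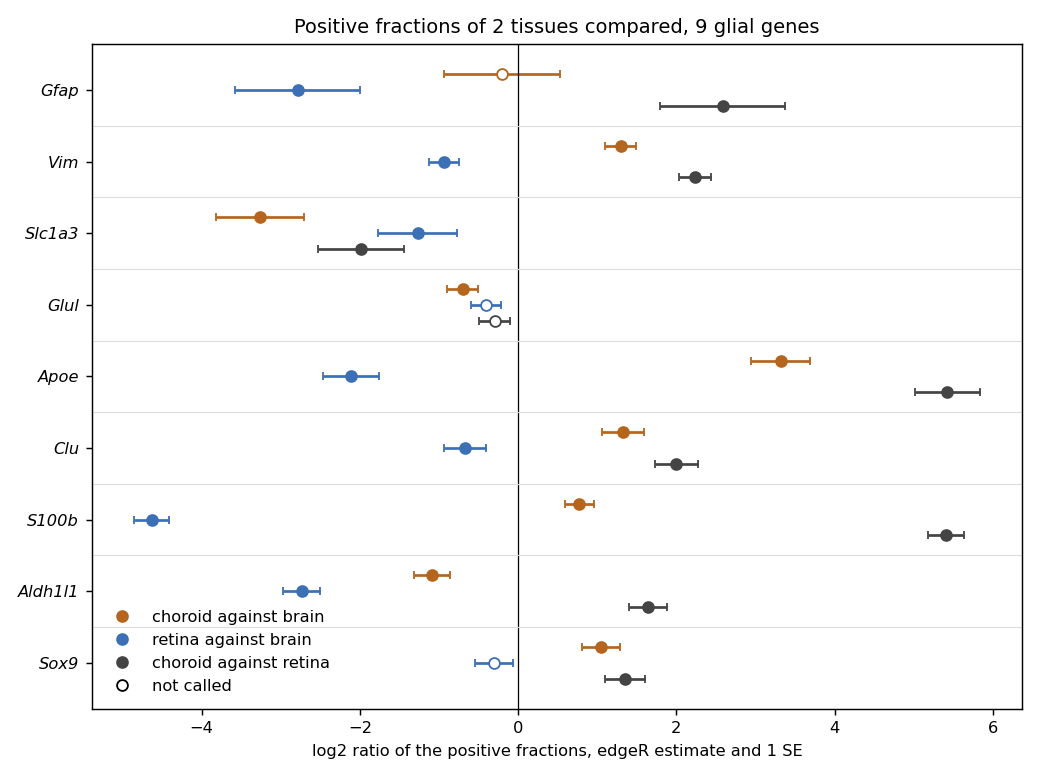
log2 ratio of the positive fractions of tissue pairs for the 9 genes, as the edgeR estimate with 1 standard error; filled points have an adjusted p under 0.05. Apoe and S100b lie 5.42 and 5.40 log2 units higher in choroid than in retina, and Slc1a3 is lower in choroid than in either other tissue.

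On the common scale Apoe was at 35730 ± 8091 CPM in choroid positive fractions (SD, n = 3, as for all levels here), 8729 ± 274.3 in choroid inputs, 3369 ± 191.1 in brain positive fractions, 2765 ± 388.6 in brain inputs, 802.4 ± 9.65 in retina inputs and 742 ± 352.7 in retina positive fractions. The brain fractions overlapped, as did the retina fractions, and all other neighbours were apart. Choroid inputs exceeded brain inputs by 1.66 ± 0.15 log2 units (adjusted p = 1.58e-05) and retina inputs by 3.44 ± 0.16 (adjusted p = 4.96e-07), and retina inputs were below brain inputs (-1.79 ± 0.15, adjusted p = 1.82e-05). For positive fractions the ratios were 3.32 ± 0.37 (adjusted p = 1.15e-05), 5.42 ± 0.41 (1.71e-07) and -2.11 ± 0.36 (0.000243). Per base of exon, Apoe ranked 1 of 11348 genes in choroid positive fractions, 3 in choroid inputs and 4 of 12401 in brain positive fractions.

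Clu stood at 4421 ± 366.4 CPM in choroid inputs, 1333 ± 407.7 in choroid positive fractions, 1069 ± 298.5 in brain inputs, 609 ± 35.2 in retina inputs, 497.8 ± 90.5 in brain positive fractions and 297.3 ± 90.3 in retina positive fractions. Choroid positive fractions overlapped brain inputs, and retina inputs overlapped brain positive fractions. Choroid inputs were 2.05 ± 0.21 log2 units above brain (adjusted p = 3.41e-05) and 2.86 ± 0.21 above retina (4.34e-06). Sox9 had a like order, from 166.2 ± 26.7 CPM in choroid inputs to 15.2 ± 2.13 in retina positive fractions, with choroid inputs 1.75 ± 0.24 above brain (0.000266) and 2.72 ± 0.25 above retina (1.73e-05). In both genes the choroid positive fractions were also above those of brain (1.33 ± 0.27 and 1.05 ± 0.24) and retina (2.00 ± 0.27 and 1.35 ± 0.25).

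Vim was highest in choroid positive fractions, at 1495 ± 90 CPM, followed by choroid inputs (777.3 ± 265.8) and brain positive fractions (572.1 ± 100.3), which overlapped, then retina positive fractions (283.3 ± 36.1), retina inputs (107.8 ± 1.79) and brain inputs (74 ± 10). Choroid inputs exceeded brain inputs by 3.40 ± 0.25 log2 units (adjusted p = 4.97e-06) and choroid positive fractions those of brain by 1.29 ± 0.19 (0.000123). Brain and retina changed places between the fractions: retina was 0.54 ± 0.23 above brain among inputs (adjusted p = 0.0639) and below it among positive fractions (-0.94 ± 0.19, adjusted p = 0.000919). The input comparison passed in 8 of its 14 alternatives: with RLE factors (adjusted p = 0.0485), library totals (0.0189), DESeq2 (0.0275) or the filter of 50 counts (0.0356), without any single choroid input (0.00534, 0.046 and 0.0323) and without the brain input 960 (0.0166).

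Slc1a3 was highest in brain inputs, at 667.4 ± 126.7 CPM, then brain positive fractions (241.6 ± 48.4), retina inputs (175.2 ± 2.80), choroid inputs (104.4 ± 104.1), retina positive fractions (95.2 ± 11.7) and choroid positive fractions (25.5 ± 28.8). Choroid inputs overlapped both their neighbours. Choroid was below brain in inputs (-2.68 ± 0.62 log2 units, adjusted p = 0.00546) and in positive fractions (-3.26 ± 0.56, adjusted p = 0.000395). Against retina inputs, choroid was at -0.75 ± 0.59 (adjusted p = 0.293), which became -2.11 with adjusted p = 0.000596 without choroid input 421. Retina was below brain in inputs (-1.93 ± 0.61, adjusted p = 0.0224) and in positive fractions (-1.27 ± 0.50, adjusted p = 0.0409). The first of these was lost without any single retina input, with adjusted p of 0.0642 to 0.0665. The second was lost without any single retina or brain positive library (0.0576 to 0.121).

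Gfap could not be ordered in choroid, where inputs had a mean of 412.2 with an SD of 596.9 CPM and positive fractions 154.4 ± 216.5. Brain had 325.4 ± 74.9 and 170.3 ± 19.9 CPM in inputs and positive fractions and retina 19.7 ± 6.85 and 23.3 ± 6.75. Retina was below brain in inputs (-4.05 ± 1.07 log2 units, adjusted p = 0.0101) and in positive fractions (-2.79 ± 0.79, adjusted p = 0.0082). For Gfap between tissues DESeq2 gave no adjusted p. Choroid inputs were at 0.34 ± 0.94 against brain (adjusted p = 0.783) and -2.30 without choroid input 421 (adjusted p = 0.00059). Choroid positive fractions were at -0.20 ± 0.73 against brain (adjusted p = 0.843) and -2.65 without choroid positive 421 (adjusted p = 3.46e-05). Against retina positive fractions they were higher by 2.58 ± 0.79 (adjusted p = 0.0104), which became 0.13 with adjusted p = 0.722 without that library. The choroid inputs were 4.39 ± 1.08 above those of retina (adjusted p = 0.0062), which became 1.63 without choroid input 421.

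S100b and Aldh1l1 were scarce in retina. S100b was at 583 ± 174.5 CPM in choroid inputs, 558.3 ± 446.6 in brain inputs and 329.5 ± 36.7 in choroid positive fractions, each overlapping the next, then 181.4 ± 43.9 in brain positive fractions and 9.87 ± 1.51 and 6.91 ± 0.65 in retina. Retina was below brain in inputs (-5.82 ± 0.59 log2 units, adjusted p = 5.55e-05) and in positive fractions (-4.63 ± 0.22, adjusted p = 2.22e-08). Choroid and brain inputs differed by 0.06 ± 0.48 (adjusted p = 0.923), or by 0.94 with adjusted p = 0.00709 without brain input 960. Aldh1l1 was at 89.5 ± 6.80 CPM in brain inputs, 74.3 ± 13 in choroid inputs and 55.9 ± 10.8 in brain positive fractions, then 27.9 ± 4.67 in choroid positive fractions and 11.4 ± 0.71 and 7.87 ± 1.93 in retina. Its retina level was below that of brain in inputs (-2.97 ± 0.16, adjusted p = 2.41e-06) and in positive fractions (-2.73 ± 0.23, adjusted p = 1.18e-06).

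Glul had the flattest profile of the 9, from 1596 ± 158.3 CPM in choroid positive fractions to 2791 ± 461.6 in choroid inputs. Among inputs choroid was at 0.38 ± 0.15 log2 units against brain (adjusted p = 0.0637) and retina at 0.26 ± 0.15 against brain (0.168). Choroid was at 0.12 ± 0.15 against retina (0.522), and none of these passed in the main fit. The first passed with RLE factors (0.41, adjusted p = 0.0452) and library totals (0.46, 0.0374). It also passed with DESeq2 (0.41, 0.00847) and at least 50 counts in every library (0.41, 0.0495). The second passed with library totals (0.46, 0.0348) and DESeq2 (0.32, 0.0407). Without choroid input 421 the first was 0.41 (adjusted p = 0.046) and the second 0.37 (0.0411), and without choroid input 953 the second was 0.37 (0.0436) and the third -0.17 (0.331). Among positive fractions choroid was below brain (-0.70 ± 0.20, adjusted p = 0.0109). Per base of exon it was the highest of the 9 in retina, ranking 16 of 11790 genes in inputs and 22 in positive fractions.

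The enrichment itself was compared between tissues, by subtracting the log2 ratio of a tissue from that of another, with all 18 libraries fitted together. Against brain, choroid gave 1 of 9 genes higher (Apoe) and 2 lower (Vim and Glul), where 12.2% and 12.3% of all genes were called, and retina gave 0 higher and 2 lower (Vim and Glul), where 8.33% and 4.97% were. Choroid against retina gave 1 higher (Apoe) and 2 lower (Aldh1l1 and Sox9), where 10.9% and 18% were. The Apoe ratio was larger in choroid than in brain by 1.75 ± 0.39 (adjusted p = 0.00382) and than in retina by 2.15 ± 0.39 (0.00078), and both calls held in all 23 alternatives. The Vim ratio was smaller in choroid than in brain (-2.01 ± 0.29, adjusted p = 0.000105) and in retina than in brain (-1.56 ± 0.29, adjusted p = 0.0026), again in all 23. The Glul ratio was smaller in choroid than in brain (-0.99 ± 0.24, adjusted p = 0.00582). For Aldh1l1 the difference between choroid and brain was -0.73 and was not called (adjusted p = 0.0578). It passed with RLE factors (-0.78, 0.0454), library totals (-1.07, 0.0109) and DESeq2 (-0.78, 0.0257). Several fits without 1 library called it too (adjusted p 0.0109 to 0.0477). For Gfap, with the block, choroid was below retina (-1.59, adjusted p = 0.00835), which was -1.65 with adjusted p = 0.39 without it, 1.01 (0.519) without choroid input 421 and -4.04 (0.0235) without choroid positive 421. The difference of Slc1a3 between choroid and retina was -1.10 (adjusted p = 0.383), and -2.68 (0.0263) without choroid positive 421. The Glul ratio was smaller in retina than in brain (-0.74 ± 0.24, adjusted p = 0.0477), which did not hold with the block (-0.75, adjusted p = 0.0599) or without any of 9 libraries (all 3 retina inputs, retina positive 953, brain inputs 421 and 953 and all 3 brain positive fractions, each left out alone; adjusted p 0.0705 to 0.118). The Aldh1l1 and Sox9 ratios were smaller in choroid than in retina, by -0.89 ± 0.29 (adjusted p = 0.0271) and -1.20 ± 0.36 (0.0191). The first did not hold without choroid inputs 421 (0.0724) or 953 (0.0599), choroid positive 953 (0.083), retina inputs 421 (0.0522) or 953 (0.0631) or retina positive 960 (0.0942), and the second without choroid input 960 (0.0567) or choroid positive 953 (0.0658).

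The likeness of profiles was described by Pearson's r of log2 CPM over the 18 libraries, which share 3 tissues and 2 fractions, among 10187 genes averaging 10 CPM or more. Gfap ran with the myelin gene Mbp (r = 0.962), and without the 2 choroid libraries of 421 this was 0.968. Vim ran with Ecm1 (0.977), Slc12a7 (0.975) and Myof (0.974), and Slc1a3 with Tubb4a (0.976), Gria1 (0.975) and Kcna1 (0.973), a neuronal tubulin, glutamate receptor subunit and potassium channel. Apoe ran with Psap (0.987), Pdlim4 (0.981) and Gsr (0.98). Clu and Sox9 ran with each other (0.976), S100b with Oxct1 (0.976) and Aldh1l1 with Nacc2 (0.982) and Slc4a4 (0.978), a bicarbonate transporter of astrocytes. Glul had no close partner, with Rtn4rl1 first at 0.779. Within the set, Aldh1l1 and S100b had r = 0.908 and Gfap and Aldh1l1 0.828, while Gfap and Vim had 0.0987 and Vim and Slc1a3 -0.716, so the 9 genes did not share a single profile.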

How the data were processed

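The 9 genes, the gene lists and the tests were chosen with earlier results of these data known. The authors deposited 1 table per tissue. Its raw columns hold expected counts per gene, as deposited by the authors, which were rounded here. The authors kept genes whose raw value reached 50 in all libraries of either fraction, per the file headers. The authors' normalized columns hold log2 values and served 1 alternative. The submitters' processing notes name DESeq and mm10, while the aligner, the counter and its strand setting were not given in the sources used here. Depth per library ran from 2649016 to 32064311 counts. All members and 11718 (choroid), 12369 (retina) and 12919 (brain) genes were tested.

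Libraries were grouped by the labels' tissue and fraction. The test was edgeR's quasi-likelihood F test (edgeR 4.0.16, R 4.3.3), after TMM scaling and filterByExpr, with Benjamini-Hochberg adjustment over all genes fitted and a call under 0.05. The residual degrees of freedom were 4 within a tissue, 6 for 9 libraries and 12 for 18. A standard error is the log2 difference over the root of F. Levels are CPM. The fits were also run on simulated counts with the same spread for every gene, no pairing and no outlying library. That setting cannot speak to calls that hang on single libraries.

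Alternatives were RLE factors, library totals, DESeq2 1.42.0, no filter, at least 50 counts in every library, all 18 libraries in 1 fit, limma 3.58.1 on the authors' log2 values, libraries left out, and the replicate block. The filter removed no gene in the fits within a tissue, so the alternative with no filter repeated the main fit there. Within a tissue the fractions of a number come from 1 lysate per the labels' protocol, which pairs them. The deviations of the paired libraries correlated at 0.642, 0.227 and 0.486 in choroid, 0.0914, 0.0901 and -0.0181 in retina and 0.175, 0.0164 and 0.0711 in brain (421, 953, 960).

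Named genes were all 9 members, from each list and tissue up to 4 called genes of smallest adjusted p and 2 uncalled of highest level, the 3 genes of highest r to each member (log2 of CPM plus 0.5), and fixed markers. An adjusted p that DESeq2 gave as NA was left out of counts of changed calls. Exon lengths are those of the gencode vM21 annotation, matched for 96.84%, 95.32% and 95.99% of genes. Some of the genes so named are not reported here.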

Additional observations from a re-analysis of the deposited data

Results flagged for a closer look

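The ratio of positive fraction to input differed between tissues in 8 cases over 5 of the 9 genes, each by a test of the difference itself in the fit of 18 libraries (edgeR's quasi-likelihood test, adjusted over all genes). For Apoe the log2 ratio was larger in choroid by 1.75 than in brain and by 2.15 than in retina. For Vim it was smaller in choroid than in brain by 2.01 (-2.01) and in retina than in brain by 1.56 (-1.56). For Glul it was smaller in choroid (-0.99) and in retina (-0.74) than in brain. Against retina, choroid had a smaller ratio of Aldh1l1 (-0.89) and Sox9 (-1.20). The retina difference of Glul and the choroid differences of Aldh1l1 and Sox9 depended on single libraries, as given above. No group had enough libraries for a test of single outlying libraries.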

How the results depend on the processing

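The number of the 9 genes called in a comparison was within 1.5 times its value for most settings. It moved in retina to 3 of 9 in the fit of 18 libraries, and in brain to 9 with DESeq2. For choroid against brain positive fractions it was 5, and for retina against brain positive fractions 3, with at least 50 counts in every library, where S100b, Slc1a3 and Aldh1l1 were not tested in either and Clu in the second was -0.49 with adjusted p = 0.11. For the difference of enrichment between choroid and brain it was 6 with library totals. With libraries left out, the lowest and highest numbers were 4 and 8 (choroid), 1 and 6 (retina) and 1 and 9 (brain). It ran from 5 to 7 for inputs and 8 to 9 for positive fractions of choroid against brain, 6 to 9 and 5 to 7 for retina against brain, and 7 to 8 and 7 to 8 for choroid against retina. For the differences of enrichment it ran from 3 to 6 (choroid minus brain), 1 to 2 (retina minus brain) and 1 to 5 (choroid minus retina). Of the single values, 1071 kept direction and call with libraries left out, 37 gained a call, 75 lost it and 32 changed sign. Under other settings the numbers were 541, 34, 12 and 3.

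With the replicate block the number for the difference between retina and brain was 1. Between tissues the samples share only a number, and there the block turned Gfap in choroid against brain inputs to -0.52. The block changed no other call than those named.

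With library totals the difference of Clu between retina and brain was -0.019 and Glul in choroid against retina inputs -0.0017. The same totals gave 1756 genes higher and 3340 lower in choroid, against 2471 and 2451, with the median of all genes at -0.26. In retina the fit of 18 libraries gave 1443 and 676, against 2226 and 1696, and limma 1914 and 2160. In brain the counts of 2744 and 2359 became 1926 and 3122 in the fit of 18, 2504 and 1663 with the block and 4670 and 4642 without the brain input 960.

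With libraries left out, these values changed sign, and their ranges over all such fits were as follows; the cause was not tested. For the positive fraction against the input, Gfap in choroid ran from -3.81 to 1.21 and Apoe in retina from -0.47 to 0.24. For choroid against brain, Gfap ran from -2.30 to 0.82 in inputs and from -2.65 to 0.32 in positive fractions, and S100b from -0.25 to 0.94 in inputs. Glul in choroid against retina inputs ran from -0.17 to 0.15. For the difference of enrichment between choroid and brain, Gfap ran from -3.07 to 1.98, Slc1a3 from -2.30 to 0.55 and S100b from -0.29 to 1.11. Between retina and brain, Clu ran from -0.41 to 0.24, S100b from -0.011 to 1.42 and Aldh1l1 from -0.071 to 0.32. Between choroid and retina, Gfap ran from -4.04 to 1.01 and Slc1a3 from -2.68 to 0.17. The lowest-depth group, the choroid positive fractions, limits Slc1a3, at 4.32 CPM in replicate 953.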
